A study of Mus musculus with 6 samples.

Results

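The subunits described here belong to the NMDA and kainate receptors, ionotropic glutamate receptors of neurons. Their transcripts were measured in retinal ganglion cells, the output neurons of the retina. The genes are Grin1, Grin2a, Grin2b, Grin2d and Grin3a for the NMDA receptor and Grik1, Grik2, Grik3, Grik4 and Grik5 for the kainate receptor, 10 in all, taken by name. A probe set was used if the platform annotation maps it only to one of these genes, which gave 18 of the 34945 single-gene probe sets, for 9 of the 18193 genes tested. Grin1, the subunit that every NMDA receptor needs, had no such probe set and was not analysed here. Where a gene had several probe sets, the brightest by mean log2 value over the 6 arrays leads, and the others are given beside it.

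Retinas of C57BL/6 mice at postnatal day 6 were dissociated with papain, and sorted cells were profiled on Affymetrix arrays in 3 groups of 2 arrays. Hb9 and Drd4 are GFP mouse lines, known for labelling ganglion cells that respond to the direction of motion, and the cells of these groups were sorted as both GFP-positive and Thy1-positive. The Thy1 group holds cells stained with an antibody to Thy1, a surface protein of ganglion cells in general, with no GFP selection named. The series text places both replicates of a cell type in different litters. Neither the GFP constructs nor the number of animals behind an array is stated in the sources used here.

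NMDA receptors are assembled from the glycine-binding subunit encoded by Grin1 with glutamate-binding subunits of the Grin2 genes, and some receptors also take in Grin3 subunits, which lower calcium entry and magnesium block. Kainate receptors are tetramers in which the products of Grik1, Grik2 and Grik3 can form channels by themselves, while those of Grik4 and Grik5 bind agonist with high affinity and need a partner from the first set. Ganglion cells receive glutamate from bipolar cells, mostly through AMPA and NMDA receptors. Kainate receptors of the retina are best known from OFF bipolar cells.

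Values are log2 intensities, in which a step of 1 is a doubling, and pairs of values are given as replicate 1 and then replicate 2. Errors of group means are SD with n = 2, and errors of differences are standard errors from limma. Adjusted p-values are two-sided, from limma with Benjamini-Hochberg adjustment over all 18193 genes, at a threshold of 0.05. The background reference is the highest Bacillus control probe set of each array, and averaged 5.32 in Hb9, 5.07 in Drd4 and 5.14 in Thy1. Precision is limited by the number of arrays, and with 2 against 2 the smallest p of an exact permutation test is 0.333.

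Median intensities of the arrays lay between 45.5 and 47.7, and 68.2% to 78.9% of genes read above the reference. Of 14 ganglion cell markers 12 were measured, and 11 of them read above background in Hb9 and 12 each in Drd4 and Thy1. Of these 12, 3 passed as higher and 1 as lower in Drd4 against Thy1. In Hb9, 1 passed as higher against Thy1, and 1 as higher and 1 as lower against Drd4. Marker sums of other cell types differed between the sorts, in both directions. The summed intensity of 13 microglial genes was 7364 to 12626 in Thy1, against 1817 to 2270 in Hb9 and 1141 to 3265 in Drd4, and 12 of the 13 passed as lower in each line. That of 14 endothelial and pericyte genes was 9403 to 10530 in Thy1, 1914 to 2341 in Hb9 and 628 to 1538 in Drd4. Against Thy1, 6 of the 14 passed as lower in Hb9 and 7 in Drd4. The endothelial genes Cdh5, Cldn5, Pecam1 and Tek were at or below background in all 3 groups. Müller glia and progenitor genes summed to 3372 to 3435 in Thy1, 1909 to 1930 in Hb9 and 1975 to 2268 in Drd4. Of 7 genes of dividing cells, 4 passed as lower in Hb9 and 6 in Drd4. The amacrine cell sum ran the other way, with 1287 to 1580 in Thy1, 1881 to 2134 in Hb9 and 2020 to 2279 in Drd4. Of its 9 genes, 1 passed as higher in each line, but the median differences from Thy1 were -0.02 in Hb9 and -0.08 in Drd4. At or below background were 6 of them in Hb9 and 4 each in Drd4 and Thy1. The ratio of the 3' to the 5' probe set of 18S ribosomal RNA was 0.843 to 0.892 in Hb9 and 0.191 to 0.312 on the other arrays. For beta-actin the same ratio was 4.02 to 5.06 and for Gapdh 3.84 to 5.04, with overlapping ranges. What these differences contribute to the results below was not tested.

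Of the 9 genes, 7 read above background in all 3 groups. Grin2a and Grik4 had means at or below the reference in every group. A change was called for 1 of the 9 in each comparison. Grik1 rose in Hb9 against Thy1, where 6.71% of all genes passed (3.52% as higher and 3.19% as lower). Grin3a fell in Drd4 against Thy1, where 5.47% passed (1.51% higher and 3.96% lower), and was higher in Hb9 than in Drd4, where 6.12% passed (4.06% higher and 2.06% lower). One gene in 9 is 11.1%, and with so few genes it is not a share that sets the family apart. Arrays of both groups did not overlap for 4 of the 9 genes in Hb9 against Thy1 (54.2% of all genes), for 5 in Drd4 against Thy1 (41.1%) and for 6 in Hb9 against Drd4 (49.7%). The median difference of the 9 genes was -0.03, 0.31 and -0.17 in these comparisons, beside 0.04, 0.02 and 0.04 over all genes. In Hb9 against Thy1 the median is the value of Grik4, and in Drd4 against Thy1 that of Grin2a. Both of these genes were at or below background. Both comparisons with Thy1 share the same Thy1 arrays.

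**Figure D1:**
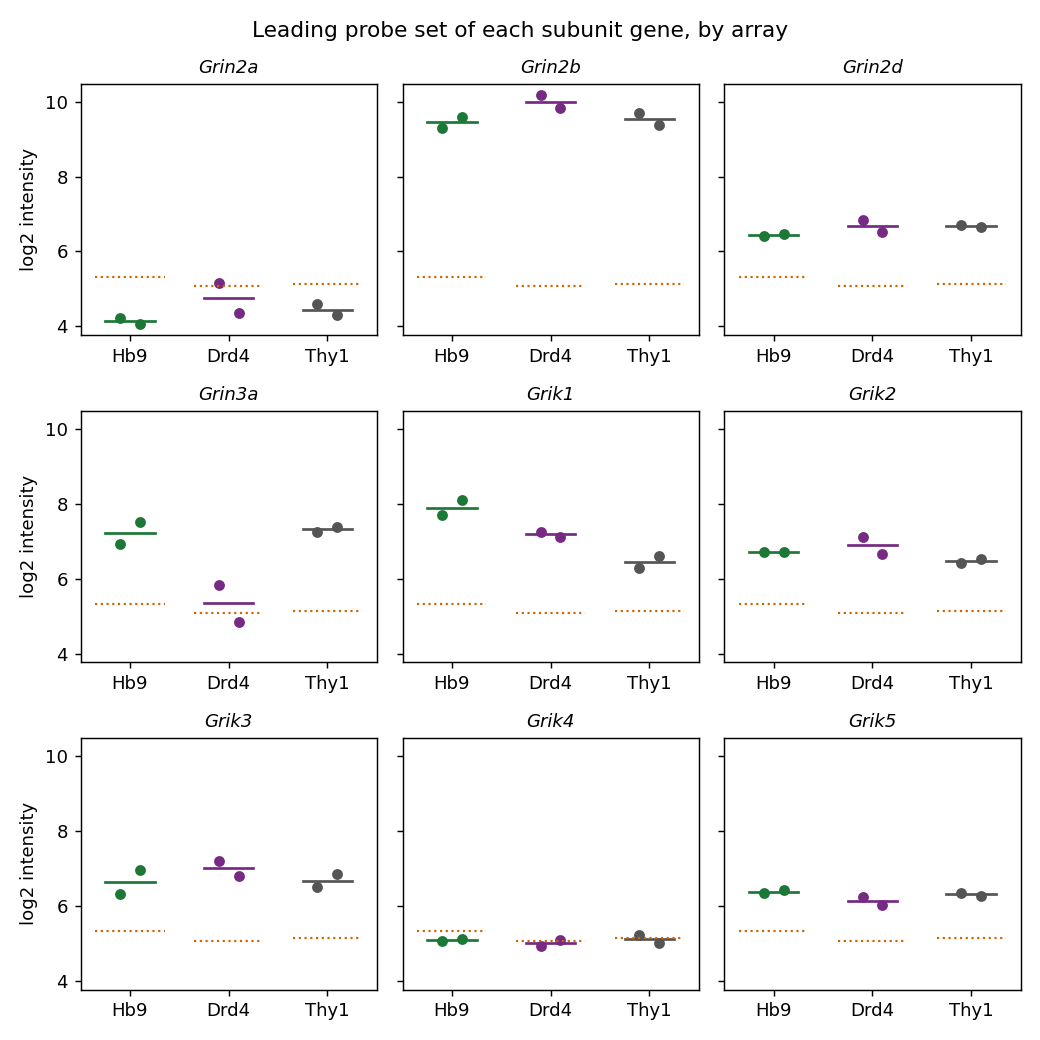
Log2 intensity of the leading probe set of each of the 9 genes on every array; points are replicates 1 (left) and 2 (right), solid lines are group means and dotted lines are the mean background reference of the group. Grin3a drops towards the reference in Drd4, and Grik1 steps down from Hb9 over Drd4 to Thy1. The means of Grin2a and Grik4 lie at or below the reference in every group.

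Among the NMDA receptor genes, Grin3a changed most between the groups. Grin3a encodes the glycine-binding GluN3A subunit, known from early postnatal neurons. Its leading probe set (1436575_at) read 6.92 and 7.53 in Hb9, 5.83 and 4.84 in Drd4, and 7.25 and 7.38 in Thy1. Both Drd4 arrays were below all 4 other arrays, and Hb9 and Thy1 overlapped. Group means were 7.22 ± 0.43 in Hb9, 5.34 ± 0.70 in Drd4 and 7.31 ± 0.09 in Thy1.

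In Drd4 cells Grin3a fell by 1.97 ± 0.30 on the log2 scale against Thy1, a 3.93-fold lower level (adjusted p = 0.00301 in limma, lower on 2 of 2 arrays). Hb9 cells had 3.69-fold more than Drd4 cells (log2 difference 1.88 ± 0.30, adjusted p = 0.00483 in limma). Hb9 and Thy1 differed by -0.09 ± 0.30, with a 95% interval of -0.75 to 0.57 (adjusted p = 0.897 in limma). The order was thus Thy1, Hb9, Drd4, and the first of these neighbours did not differ beyond their spread. In sorted pools, fewer cells with a transcript and less of it per cell cannot be told apart.

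The Drd4 level of Grin3a was at the limit of what the arrays measure. Drd4 replicate 1 read above the reference of its array (4.95), and replicate 2 read below its own (5.20). These replicates lay 0.99 apart, against a median gap of 0.17 over all genes in Drd4. The Drd4 minus Thy1 difference moved with the replicate, from -1.48 without Drd4 replicate 2 to -2.47 without Drd4 replicate 1, and passed in both cases.

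A second Grin3a probe set (1438866_at) read 5.27 and 6.29 in Hb9, 4.63 and 4.20 in Drd4, and 6.50 and 5.94 in Thy1. Hb9 replicate 1 was here below the reference of its array (5.38). The Drd4 mean was below the reference too, so the difference from Thy1 is a bound of at least 2.22-fold. That from Hb9 is a bound of at least 1.64-fold. Both passed when all 34945 probe sets were fitted together (adjusted p = 0.00653 and 0.0233 in limma). In that fit 2 of the 18 probe sets were called in Drd4 against Thy1, both of Grin3a (4.43% of all probe sets passed). In Hb9 against Drd4 3 of the 18 were called, both of these and the leading one of Grik1 (7.21%), and in Hb9 against Thy1 1, again of Grik1 (7.12%). The last Grin3a probe set (1458378_at) was at or below the reference in all groups, with values of 4.83 to 5.19, and gives no direction. With the mean over all 3 probe sets the fall was 1.34 (adjusted p = 0.00722 in limma).

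**Figure D2:**
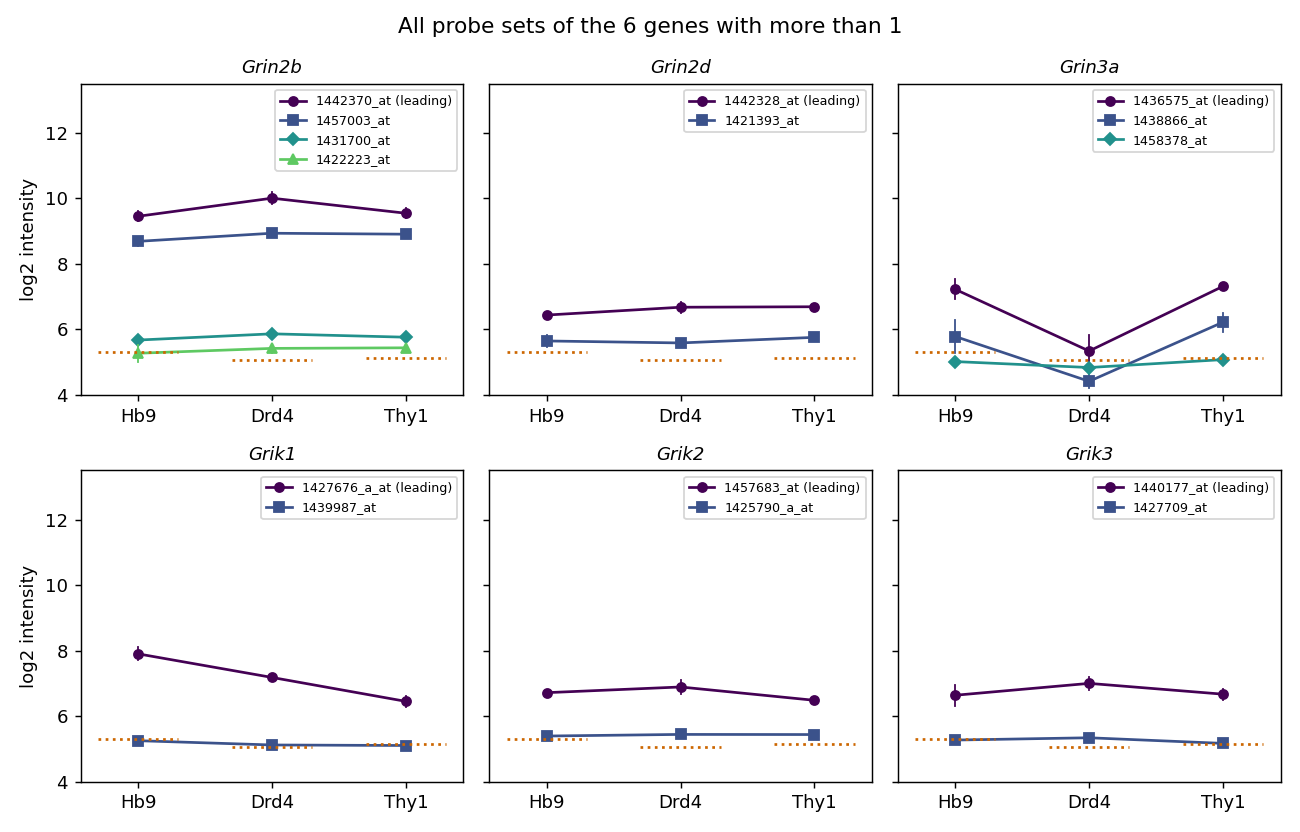
Mean log2 intensity of every probe set of the 6 genes that have more than 1, by group; vertical bars join both replicates, lines join the groups of a probe set and dotted lines mark the mean background reference. For Grin3a the leading probe set and 1438866_at both drop in Drd4, while for Grik1 the leading probe set alone lies clear of the reference.

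The summed level of horizontal cell markers was lowest in Drd4, as that of Grin3a was, and its part in the Grin3a result was not tested. Of the 6 genes, 3 passed as lower in Drd4 against Thy1 (median difference -0.71), 1 as higher in Hb9 against Drd4 (0.40), and 1 as lower in Hb9 against Thy1 (-0.20). Their summed intensity over 6 genes was 657 to 899 in Hb9, 225 to 295 in Drd4 and 574 to 613 in Thy1. A large part of the Hb9 sum came from Calb1, the gene of the calcium-binding protein calbindin, which ganglion cells also express, at 9.34 and 8.68 in Hb9, 5.57 and 6.60 in Drd4, and 7.98 and 7.83 in Thy1. Calb1 thus stood above Thy1 in Hb9, against the median of its list. Lhx1 and Prox1, transcription factors used as horizontal cell markers, were at or below background in all 3 groups.

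The GluN2 subunit genes gave smaller differences, none past the threshold. Grin2b, which encodes the subunit typical of immature synapses, read 9.30 and 9.60 in Hb9, 10.18 and 9.83 in Drd4, and 9.70 and 9.39 in Thy1 (probe set 1442370_at). Drd4 was above both other groups on 2 of 2 arrays, while Hb9 and Thy1 overlapped. The Drd4 level differed from Thy1 by 0.46 ± 0.18 (95% interval 0.06 to 0.86, adjusted p = 0.251 in limma), and Hb9 from Drd4 by -0.55 ± 0.18 (-0.95 to -0.15, adjusted p = 0.11). For Hb9 against Thy1 the difference was -0.09 ± 0.18 (-0.49 to 0.31). Of its 3 other probe sets, 1457003_at read 8.54 to 9.00 over the 6 arrays, with a Drd4 minus Thy1 difference of 0.03 ± 0.16. The remaining pair, 1431700_at and 1422223_at, lay near the reference at 5.02 to 5.97. For the 3 of them the Drd4 minus Thy1 difference ran from -0.02 to 0.10, so the difference from Thy1 was seen with the leading probe set alone. In Hb9 minus Drd4 all 3 had the sign of the leading one (-0.25, -0.19 and -0.15), none past the threshold, and for 1457003_at Hb9 was below both other groups.

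Grin2d encodes GluN2D, a subunit of slowly closing receptors. It read 6.41 and 6.46 in Hb9, 6.84 and 6.51 in Drd4, and 6.72 and 6.67 in Thy1 (probe set 1442328_at). Hb9 was below both other groups, and those overlapped. Its differences were -0.25 ± 0.16 for Hb9 minus Thy1 (95% interval -0.60 to 0.10), -0.01 ± 0.16 for Drd4 minus Thy1 (-0.37 to 0.34) and -0.24 ± 0.16 for Hb9 minus Drd4 (-0.59 to 0.11). A second probe set (1421393_at) read 5.47 to 5.84 and passed in no comparison. On it Hb9 overlapped both other groups, and Hb9 minus Drd4 had the other sign (0.06 ± 0.16).

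Grin2a encodes GluN2A, the subunit that gains ground as synapses mature. It read 4.21 and 4.07 in Hb9, 5.15 and 4.35 in Drd4, and 4.60 and 4.30 in Thy1. Drd4 replicate 1 alone lay above the reference of its array, and the mean of every group lay below. Differences between such values have no fold. The intensity on Drd4 replicate 1 set the outcome of the tests. With Drd4 replicate 2 left out, Grin2a passed as higher in Drd4 than in Thy1 (0.71, adjusted p = 0.0372 in limma) and lower in Hb9 than in Drd4 (-1.02, adjusted p = 0.00429), and without Drd4 replicate 1 the differences were -0.09 and -0.22.

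**Figure D3:**
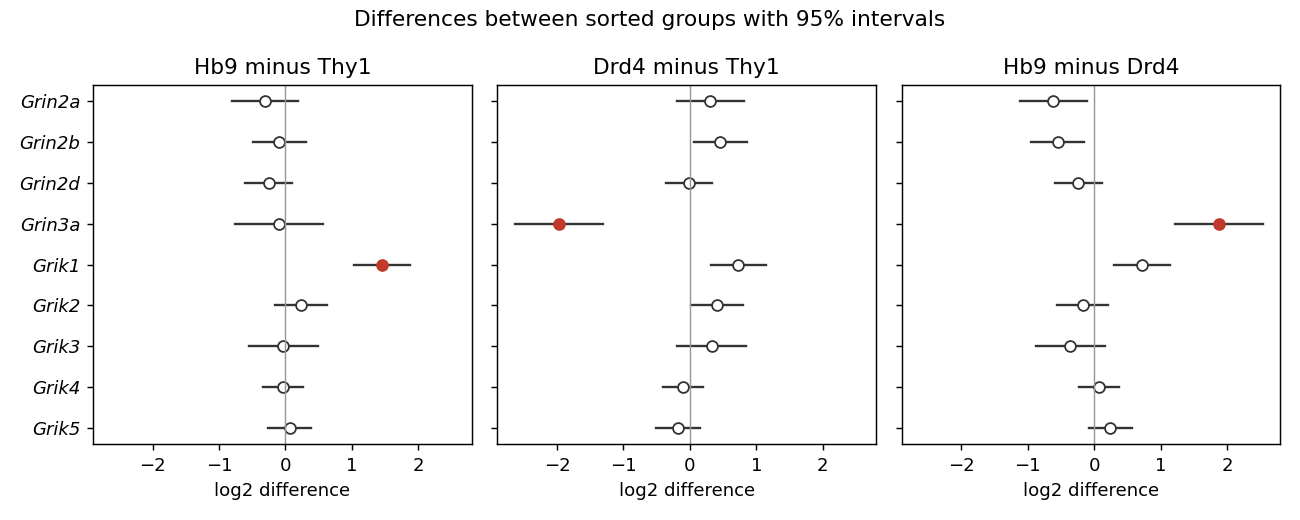
Log2 difference of each gene's leading probe set in the 3 comparisons, with 95% intervals from limma as bars; filled points have an adjusted p below 0.05. Grik1 is filled in Hb9 minus Thy1 (1.45), and Grin3a is filled in Drd4 minus Thy1 (-1.97) and Hb9 minus Drd4 (1.88).

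Among the kainate receptor genes, Grik1 changed most between the groups. Grik1 encodes GluK1, a subunit that can form channels by itself. The leading probe set (1427676_a_at) read 7.70 and 8.10 in Hb9, 7.25 and 7.11 in Drd4, and 6.29 and 6.62 in Thy1. The lowest Hb9 array stood above the highest Drd4 array, and the lowest Drd4 array above the highest Thy1 array. Single pairs of groups did not overlap for 41.1% to 54.2% of all genes, and the share for all 3 groups was not counted. Means were 7.90 ± 0.28 in Hb9, 7.18 ± 0.10 in Drd4 and 6.45 ± 0.23 in Thy1.

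Against Thy1, Grik1 rose 2.73-fold in Hb9 (log2 difference 1.45 ± 0.19, adjusted p = 0.00262 in limma, higher on 2 of 2 arrays). The Drd4 level lay between these, 0.73 ± 0.19 above Thy1 (95% interval 0.31 to 1.15, adjusted p = 0.0539 in limma) and 0.72 ± 0.19 below Hb9 (0.30 to 1.14, adjusted p = 0.0525). Neither of the latter steps passed, so the neighbours in the order Hb9, Drd4, Thy1 are not shown to differ, while its ends do. With all probe sets fitted together the step from Drd4 to Hb9 passed (adjusted p = 0.0466) and that from Thy1 to Drd4 did not (adjusted p = 0.0622).

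The second Grik1 probe set (1439987_at) read 5.25 and 5.25 in Hb9, 5.09 and 5.15 in Drd4, and 5.04 and 5.17 in Thy1, close to the reference in every group. Its Hb9 minus Thy1 difference was 0.15 ± 0.13 and did not pass. Averaging both probe sets gave a difference of 0.80 in that comparison (adjusted p = 0.0134 in limma). That average contains the leading probe set, so both the Grik1 call and its size rest on 1 probe set.

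Grik1 is also known from OFF bipolar cells, and 7 of 9 bipolar cell markers were measured. Their summed intensity was 900 to 1125 in Hb9, 748 to 926 in Drd4 and 719 to 877 in Thy1, and 0 of 7 passed in limma in each comparison (0, 1 and 1 at an unadjusted p under 0.05). Otx2, a transcription factor of bipolar and photoreceptor cells, was at or below background in all 3 groups. Most of the bipolar sum on every array came from Prkca, a protein kinase C gene that marks rod bipolar cells. Prkca read 9.30 and 9.74 in Hb9, 9.39 and 8.96 in Drd4, and 9.31 and 8.85 in Thy1.

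Grik2 encodes GluK2, a widespread kainate receptor subunit. It read 6.72 and 6.72 in Hb9, 7.11 and 6.67 in Drd4, and 6.43 and 6.54 in Thy1 (probe set 1457683_at). Both lines were above Thy1 on 2 of 2 arrays each and overlapped with each other. The differences were 0.23 ± 0.17 for Hb9 minus Thy1 (95% interval -0.15 to 0.62, adjusted p = 0.479 in limma) and 0.41 ± 0.17 for Drd4 minus Thy1 (0.02 to 0.79, adjusted p = 0.312). A second probe set (1425790_a_at) read 5.27 to 5.56 and differed by -0.05 and 0.00 in these comparisons.

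Grik3, the gene of the low-affinity subunit GluK3, read 6.31 and 6.96 in Hb9, 7.19 and 6.81 in Drd4, and 6.50 and 6.84 in Thy1. All 3 groups overlapped in part, and the Hb9 replicates were 0.65 apart. The differences from Thy1 were -0.03 ± 0.23 in Hb9 (95% interval -0.55 to 0.49) and 0.33 ± 0.23 in Drd4 (-0.19 to 0.85). Its other probe set (1427709_at) read 5.11 to 5.42, near the reference.

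For the high-affinity subunit genes the group means lay close together, within 0.24 for Grik5 and 0.11 for Grik4. Grik5, which encodes GluK5, read 6.33 and 6.41 in Hb9, 6.24 and 6.02 in Drd4, and 6.35 and 6.26 in Thy1. Drd4 was below both other groups, with differences of -0.18 ± 0.15 from Thy1 (95% interval -0.51 to 0.15) and of 0.24 ± 0.15 for Hb9 minus Drd4 (-0.08 to 0.57, adjusted p = 0.413 in limma). Grik4, which encodes GluK4, read 4.93 to 5.23 over the 6 arrays, at or below background in every group mean. For Grik4, a difference was not measurable on these arrays.

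Grin3a and Grik1 were set beside the 842 genes whose group means span at least 1 log2 unit, to find the closest patterns over the 6 arrays. For Grin3a these were Cpne4, a calcium-dependent phospholipid-binding protein gene (Pearson r = 0.999), the neuropeptide gene Tac1 (0.991) and Galntl6, a gene of the glycosyltransferase family that starts O-glycans (0.991). Cpne4 read 9.46 and 9.96 in Hb9, 8.29 and 7.44 in Drd4, and 9.65 and 9.81 in Thy1. Like Grin3a, it was lower on Drd4 replicate 2 than on replicate 1. Tac1 read 10.03 and 10.48 in Hb9, 8.84 and 7.98 in Drd4, and 10.61 and 10.41 in Thy1. Galntl6 read 8.46 and 8.77 in Hb9, 7.33 and 6.31 in Drd4, and 8.93 and 8.79 in Thy1. For each of the 3 genes both Drd4 arrays were below the other 4, which a choice by r with Grin3a over the same arrays makes likely. In all, 26 of the 842 genes had an r above 0.95 with Grin3a.

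For Grik1 the closest were Chrnb4 (r = 0.977) and Chrna3 (0.962), which encode nicotinic acetylcholine receptor subunits, and Acbd6, an acyl-CoA binding protein gene (0.975). Chrnb4 read 6.66 and 7.09 in Hb9, 6.29 and 6.28 in Drd4, and 5.70 and 5.63 in Thy1. Chrna3 read 9.72 and 9.64 in Hb9, 9.18 and 9.00 in Drd4, and 7.76 and 8.23 in Thy1. Acbd6 read 8.16 and 8.13 in Hb9, 7.60 and 7.58 in Drd4, and 6.91 and 7.24 in Thy1. The groups did not overlap for any of them, which a choice by r with Grik1 over the same arrays makes likely. These 3 genes were the sole ones with an r above 0.95. Such r values describe 6 arrays in 3 groups that share their arrays, and no p is attached.

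**Figure D4:**
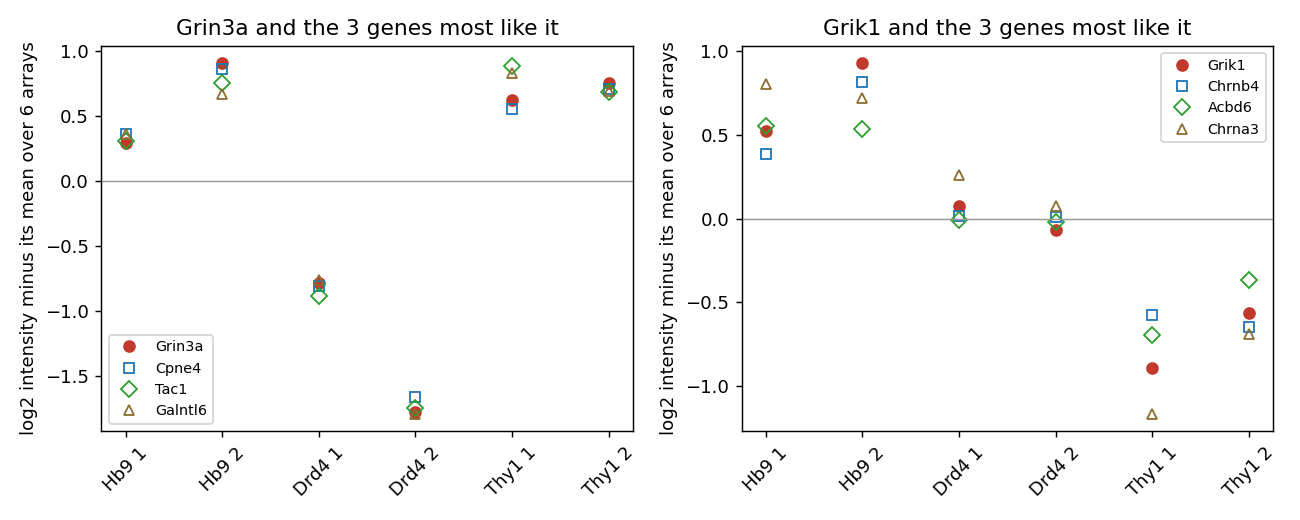
Log2 intensity of Grin3a (left) and Grik1 (right) and of the 3 genes with the highest Pearson r to each, on every array and minus each gene's mean over the 6 arrays. The genes beside Grin3a are low on both Drd4 arrays and lowest on Drd4 replicate 2, and those beside Grik1 are high in Hb9 and low in Thy1.

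Other genes of glutamate signalling were counted in 7 lists of receptor subunits, auxiliary proteins, scaffolds, transporters and co-agonist enzymes, with 64 of 71 genes measured. In Hb9 against Thy1 3 were higher and 1 lower, or 6.25% of the 64. In Drd4 against Thy1 3 were lower and 0 higher (4.69%), with 10 of the 64, 6 higher and 4 lower, and 2647 of all 18193 genes at an unadjusted p under 0.05 in limma. In Hb9 against Drd4 2 were higher and 2 lower (6.25%). All 3 shares lie close to the 6.71%, 5.47% and 6.12% of all genes. The split by direction depends on the probe sets: with a gene's probe sets averaged, 0 were higher and 3 lower in Hb9 against Thy1 (Gria3, Lin7a and Slc17a6, 0 of them among the 4 above), and 0 higher and 4 lower in Hb9 against Drd4.

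Of the 2 kainate receptor auxiliary genes, 1 passed, in Drd4 against Thy1. Neto2, an auxiliary subunit of kainate receptors, read 8.20 and 8.87 in Hb9, 8.05 and 7.32 in Drd4, and 8.94 and 9.09 in Thy1. It fell by 1.33 ± 0.27 in Drd4 against Thy1 (adjusted p = 0.0151 in limma). Without Drd4 replicate 2 the difference was -0.96 (adjusted p = 0.0685), without Thy1 replicate 1 it was -1.40 (0.0607), without Thy1 replicate 2 it was -1.25 (0.089), and with the mean of its probe sets -0.76 (0.0507). Its relative Neto1 differed by 0.04 ± 0.16 in the same comparison.

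Among 15 AMPA receptor subunit and auxiliary genes, Shisa9, whose product slows recovery of AMPA receptors from desensitisation, was lower in both lines. It read 7.02 and 7.22 in Hb9, 6.33 and 5.95 in Drd4, and 8.30 and 7.71 in Thy1, so no 2 groups overlapped. It fell by 1.86 ± 0.22 in Drd4 (adjusted p = 0.000653 in limma) and by 0.89 ± 0.22 in Hb9 (adjusted p = 0.0383), and was 0.97 ± 0.22 higher in Hb9 than in Drd4 (adjusted p = 0.0273). The Drd4 call held in 15 of 15 alternatives. With the mean of its probe sets the differences were smaller, at -0.72 in Drd4, -0.27 in Hb9 (adjusted p = 0.189) and 0.45 between the lines (0.0521). The Hb9 call was lost in 4, with adjusted p up to 0.27 without Thy1 replicate 1, and the call between the lines in 5. Cacng5, a gene of the TARP family of auxiliary subunits, fell by 0.77 ± 0.15 in Drd4 (adjusted p = 0.014), a call lost without Drd4 replicate 2 (0.0992) and Thy1 replicate 2 (0.0881). The pore-forming AMPA receptor genes Gria1, Gria2, Gria3 and Gria4 passed in no comparison in the fit described above. Gria3 was nearest, at -0.75 ± 0.19 in Drd4 against Thy1 (adjusted p = 0.0566), and passed as lower there in 6 of 15 alternatives, and in Hb9 against Thy1 with the mean of its probe sets.

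Without Drd4 replicate 2 or Thy1 replicate 2, 1 of the 64 genes passed in Drd4 against Thy1, Shisa9.

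Of 24 scaffold and signalling genes, Dlg2, a postsynaptic density scaffold that binds NMDA receptors, rose by 0.63 ± 0.14 in Hb9 against Thy1 (adjusted p = 0.0254 in limma). It read 10.72 and 10.85 in Hb9, 10.75 and 10.44 in Drd4, and 10.16 and 10.15 in Thy1, with both lines above Thy1. Dlg4, which encodes PSD-95, differed by 0.04 ± 0.15 there. Slc1a4, a neutral amino acid carrier that moves the co-agonist D-serine, was 0.72 ± 0.17 higher in Hb9 than in Thy1 (adjusted p = 0.0307) and 0.70 ± 0.17 higher than in Drd4 (adjusted p = 0.0353). With the mean of its probe sets these were 0.34 (adjusted p = 0.182) and 0.43 (0.108). It read 8.88 and 9.09 in Hb9, 8.35 and 8.21 in Drd4, and 8.11 and 8.41 in Thy1. Slc1a6, a glutamate transporter gene, rose by 0.75 ± 0.19 in Hb9 (adjusted p = 0.0498), a call lost in 6 of 15 alternatives, among them quantile normalisation (0.0555), the mean of probe sets (0.051) and an offset before log2 (0.0521). Drd4 differed from Thy1 by 0.76 ± 0.19 (adjusted p = 0.0548). Without Hb9 replicate 1, Hb9 replicate 2 or Thy1 replicate 1, 0 of the 64 genes passed in Hb9 against Thy1, with 8, 12 and 10 at an unadjusted p under 0.05 in limma. Counts over all genes also fell in these fits, from 1220 to 315, 441 and 380, with 2502, 3342 and 2332 at an unadjusted p under 0.05. Dlg2 also missed without Thy1 replicate 2 (adjusted p = 0.0583), and with the mean of its probe sets it differed by 0.30 (0.193).

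Of 6 metabotropic receptor genes, Grm4 and Grm8, which encode presynaptic group III receptors, were lower in Hb9 than in Drd4. Grm4 read 6.78 and 6.82 in Hb9, 7.51 and 7.37 in Drd4, and 7.21 and 7.34 in Thy1, a Hb9 minus Drd4 difference of -0.64 ± 0.15 (adjusted p = 0.0335 in limma). Grm8 read 4.92 and 4.97 in Hb9, 5.52 and 5.72 in Drd4, and 5.34 and 5.10 in Thy1. The Hb9 mean of Grm8 was below the reference, which bounds its fold at 1.23 or more (adjusted p = 0.0209). Without either Hb9 replicate 0 of the 64 genes passed between the lines, with 8 and 11 at an unadjusted p under 0.05 in limma, and counts over all genes fell from 1113 to 411 and 532. Without Drd4 replicate 2 the sole gene passing there was Cask, and without Drd4 replicate 1 Grm4 (adjusted p = 0.172) and Slc1a4 (0.0815) missed. The genes nearest to the NMDA receptor family, Grin2c, Grin3b, Grid1 and Grina, passed in no comparison, with differences between -0.48 and 0.47.

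**Figure D5:**
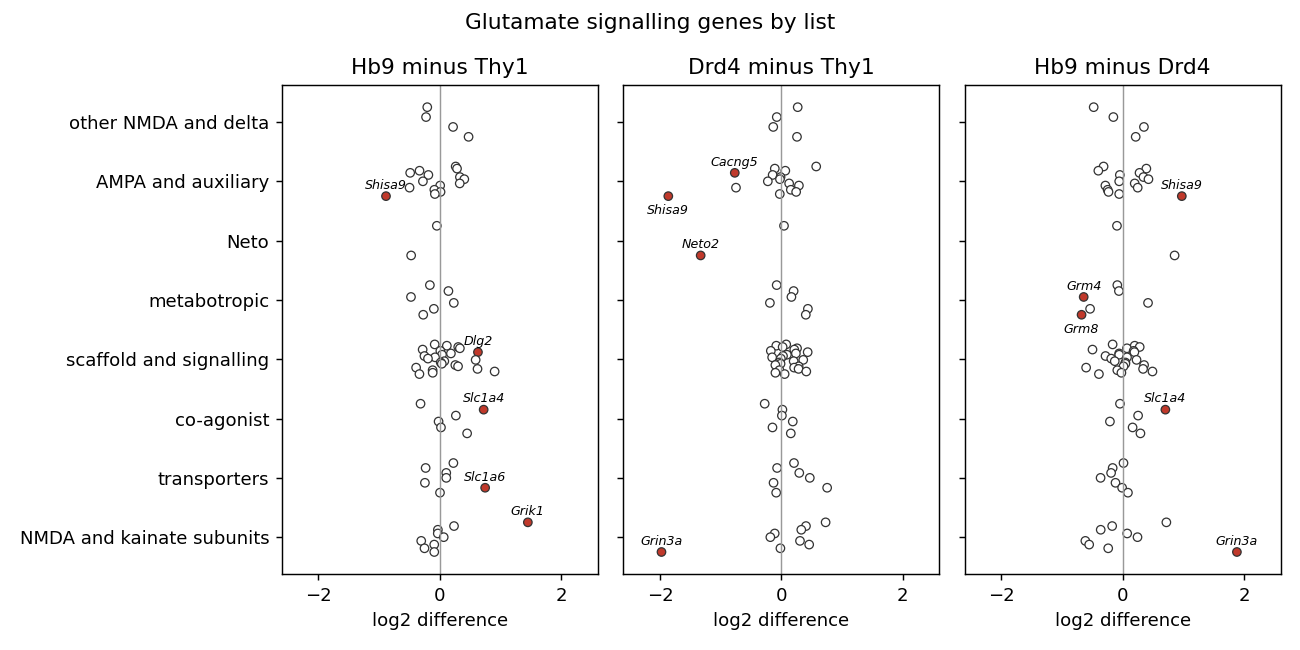
Log2 differences of the glutamate signalling genes in the 3 comparisons, 1 point a gene and 1 row a list, the subunit genes themselves at the bottom, with filled and named points at an adjusted p below 0.05. Most points lie near 0, and Grin3a, Grik1, Shisa9 and Neto2 reach differences beyond 1 on the log2 scale.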

How the data were processed

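Array values were used as the authors deposited them, as probe set intensities on a linear scale. Per the labels' protocols, RNA of sorted cells went through 2 rounds of amplification and biotin labelling. The sources used here do not name the software or the background correction, summarisation and normalisation behind the intensities.

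The table holds 45101 probe sets, of which 34945 map to 1 gene, 932 to several, 9160 are unnamed here and 64 are controls. Entrez identifiers matched 34741 to RefSeq. Log2 was taken without an offset, since 0 values were at or below 0. Limma 3.58.1 in R 4.3.3 fitted a mean for each of 3 groups on all 6 arrays (3 residual and 6.98 prior degrees of freedom, with intensity trend). Intervals are moderated and cover 95%. The median standard error was 0.15. The procedure was tested on simulated data.

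The members, lists, comparisons and alternatives were chosen with earlier results of these data known. All members were named, then the 3 genes most correlated with each called member, and at most 3 called genes of a list. Neto1, Dlg4, Cask, Lin7a, Slc17a6, Cacng2, the AMPA subunits and single markers were named after their values were seen. No label ties a replicate number to a litter, so the model has no term for it.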

Additional observations from a re-analysis of the deposited data

Results flagged for a closer look

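The difference of Grin3a from Thy1 was not the same in both lines. Hb9 minus Drd4 came to 1.88 on the log2 scale in the limma test of the difference itself (adjusted p = 0.00483). The groups have 2 arrays each, too few to look for outlying arrays.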

How the results depend on the processing

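Of 15 alternatives, 6 left out an array each, and the group with 1 array left was then assumed to vary like the others. The Grik1 call in Hb9 against Thy1 and both Grin3a calls held in all 15 (differences of 0.80 to 1.65, -2.47 to -1.34 and 1.14 to 2.38). In Drd4 against Thy1, 2 members passed with quantile normalisation, with dim genes left out, with moderation without the trend and with robust moderation, each time Grin3a and Grik1, and 1 to 2 with an array left out. In Hb9 against Drd4, 2 passed with dim genes left out, with all probe sets fitted together, with moderation without the trend, with robust moderation and with an offset of 16 before log2, again Grin3a and Grik1, and 1 to 2 with an array left out. Adjusted p-values of Grik1 ran from 0.0453 to 0.311 and from 0.0455 to 0.291 in these comparisons. Over all genes, counts with an array left out were 315 to 1633 in Hb9 against Thy1 (1220 with all arrays), 666 to 922 in Drd4 against Thy1 (995) and 411 to 1244 in Hb9 against Drd4 (1113).

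Of 399 alternative values of members, 16 had the other sign, 0 of them past the threshold. In Hb9 against Thy1, Grik3 was at 0.0160 with median centring and 0.0345 with the mean of probe sets, and Grik4 at 0.0135 with quantile normalisation and 0.0143 with median centring. With an array left out in turn, Grin2b ran from -0.25 to 0.0625 there, Grin3a from -0.40 to 0.21, Grik3 from -0.36 to 0.29 and Grik4 from -0.14 to 0.0733. In Drd4 against Thy1, Grin2d was at 0.00804 with median centring, and with an array left out it ran from -0.18 to 0.15 and Grin2a from -0.092 to 0.71. In Hb9 against Drd4, Grik2 ran from -0.40 to 0.0492 and Grik4 from -0.00056 to 0.15 with an array left out. Causes were not tested. Grin2a and Grik4 have no value with dim genes left out.

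Same-numbered arrays did not deviate together in every pair of groups (r = -0.28 for Hb9 and Drd4, -0.19 for Hb9 and Thy1, 0.37 for Drd4 and Thy1, across genes). With the replicate block, 1 member passed in each comparison (Grik1 at 1.45, Grin3a at -1.97 and 1.88), and all genes passing numbered 1156, 985 and 1030. Of the 64 other glutamate signalling genes, 4, 4 and 2 passed with the replicate block (4, 3 and 4 without it), and Slc1a4 (adjusted p = 0.0504) and Grm4 (0.0517) missed in Hb9 against Drd4.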
